A study of Rattus norvegicus with 24 samples.

Results

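Liver expression of the enzymes of peroxisomal beta-oxidation and alpha-oxidation was examined over diet and time. The 8 genes were listed by name: Ehhadh, Acox2, Acox3, Hsd17b4, Amacr, Scp2, Phyh and Hacl1. A gene was kept where a probe set of the array is annotated with its symbol alone, and 7 of the 8 were measured, out of 17245 genes in all. Each of the 7 had 1 such probe set. The probe set of Scp2, whose product includes the thiolase of branched chains, is annotated with a further symbol, so Scp2 was not analysed here. The rats were male Wistar animals fed 5% protein for 1 week, 20% protein for 1 week, 5% protein for 4 weeks or 20% protein for 4 weeks, with 6 animals and 6 arrays in each group and no further allele or agent named. Their age was not given in the sources used here, and the array descriptions carry 4 and 18 in place of 5 and 20 as the protein code. Total RNA of whole liver was hybridised, 1 animal to an array.

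Peroxisomes shorten acyl chains that mitochondria handle poorly: very long straight chains, chains with a methyl branch such as pristanic acid, and the side chain of cholesterol-derived bile acid precursors. A cycle runs through an oxidase that yields hydrogen peroxide, a bifunctional hydratase and dehydrogenase, and a thiolase. The L-specific bifunctional enzyme Ehhadh acts on straight chains and dicarboxylic acids, and is a classical target of the receptor PPARa in rodents. Branched chains and bile acid precursors use the oxidases Acox2 and Acox3, the racemase Amacr and the D-specific bifunctional enzyme Hsd17b4. Hsd17b4 also serves very long straight chains, so it is not confined to the branched-chain route. Phytanic acid, whose methyl group blocks the cycle, is first shortened by a single carbon in alpha-oxidation, through the hydroxylase Phyh and the lyase Hacl1.

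The tissue label was checked against hepatocyte markers listed by name. All 8 measured markers (Alb, Apob, Ttr, Tf, Serpina1, Fga, Fgb and Fgg) had mean log2 intensities above those of at least 99.3% of genes, and the 7 enzyme genes lay above at least 92.7%. The median intensity of an array was 42.4 to 45.5, and within a group the arrays correlated at 0.984 to 0.995 over probe sets. The animal numbers in the titles fall into 4 runs. At 1 week each diet had 3 animals in run 2 (49 to 54) and 3 in run 4 (74 to 79). At 4 weeks run 1 (22 to 32) held 5 animals on 5% and 2 on 20%, and run 3 (59 to 73) held 1 animal on 5% and 4 on 20%. The labels do not say what these runs are, and no array well row held both diets at 1 week, so row and diet cannot be told apart there.

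At 4 weeks most enzyme genes of the branched-chain, bile acid and alpha-oxidation steps were lower on 5% protein than on 20%, while the straight-chain gene Ehhadh had a difference above 0 that did not pass the test. Of the 7 genes, 5 were called lower on 5% protein (Acox2, Amacr, Hacl1, Phyh and Acox3) and 0 higher, by limma at a Benjamini-Hochberg adjusted p under 0.05 over all genes. Of all 17245 genes 12.4% were called lower and 25.8% in either direction at that week. With run of animal numbers as a covariate 4 of the 7 were called, without Hacl1, and in run 1 alone 1 was, Acox2. The median log2 difference (5% minus 20%) was -0.60 over the 7 genes and -0.01 over all genes. In bulk liver, fewer cells of a type and less RNA per cell cannot be told apart. At 4 weeks 5 of the 8 hepatocyte markers were also called lower, with a median log2 difference of -0.19 and a range of -0.40 to -0.09. Their summed intensity was 58459 to 75749 on 5% and 70914 to 84196 on 20%, and 6 of 7 Kupffer cell markers were lower too (median -0.51). The part of these shifts in the enzyme result was not tested.

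**Figure D1:**
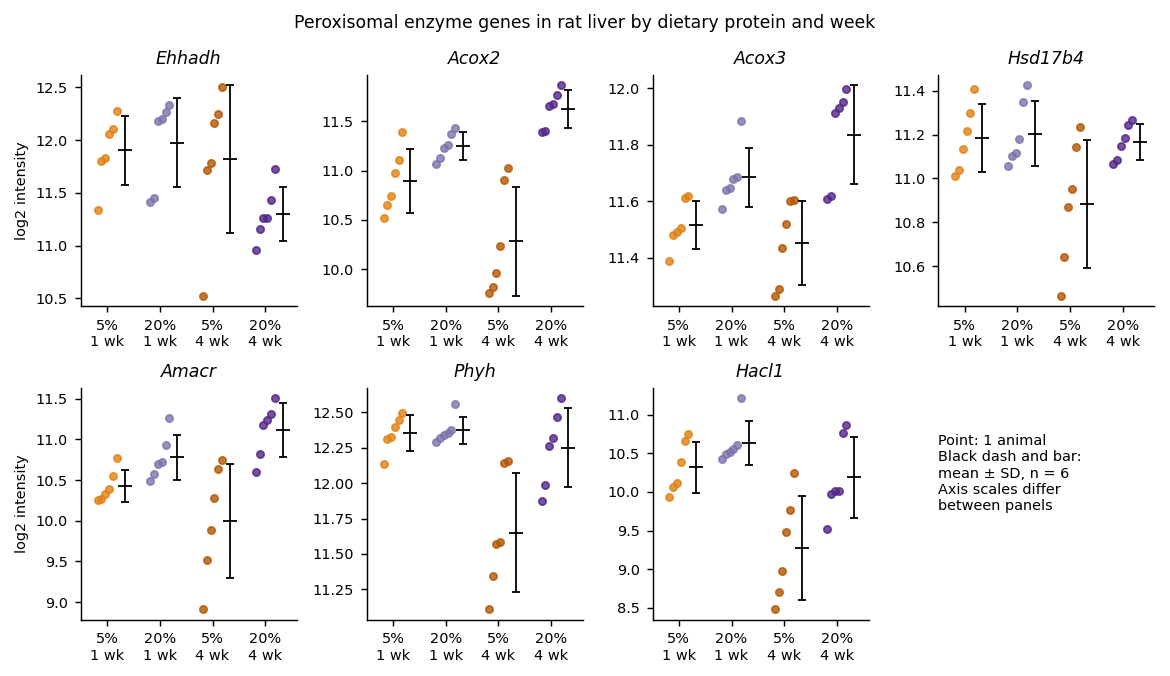
Log2 intensity of the 7 measured enzyme genes (y axis, scale differs between panels) in each of the 4 groups (x axis: percent protein and weeks), 1 point per animal, with the mean and SD of 6 animals as a black dash and bar. Acox2 and Acox3 at 4 weeks show all 6 animals on 5% below all 6 on 20%, while Ehhadh on 5% spans 10.52 to 12.50.

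The promoters of Acox2, Amacr and Ehhadh are shown because these genes are at the ends of the range of diet differences. The sequences are those of RefSeq on build GRCr8, from 250 bases before to 50 after the annotated start, on the plus strand for all 3 genes. They lie at chr15:19090705-19091004 for Acox2, chr2:61673085-61673384 for Amacr and chr11:92746159-92746458 for Ehhadh. Capitals mark the letters CCAAT or AGGTCA, or their reverse complements.
Acox2: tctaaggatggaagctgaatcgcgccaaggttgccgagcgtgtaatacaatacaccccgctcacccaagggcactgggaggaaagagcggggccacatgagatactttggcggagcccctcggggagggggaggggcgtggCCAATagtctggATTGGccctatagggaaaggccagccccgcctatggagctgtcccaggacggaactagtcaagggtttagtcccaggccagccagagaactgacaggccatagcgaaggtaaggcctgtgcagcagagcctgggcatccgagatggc
Amacr: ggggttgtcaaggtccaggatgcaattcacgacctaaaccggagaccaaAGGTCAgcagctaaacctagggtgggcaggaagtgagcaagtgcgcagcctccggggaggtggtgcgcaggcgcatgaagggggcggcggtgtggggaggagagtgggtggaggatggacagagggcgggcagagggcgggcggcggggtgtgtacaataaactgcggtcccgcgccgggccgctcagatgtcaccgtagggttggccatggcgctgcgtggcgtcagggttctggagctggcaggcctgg
Ehhadh: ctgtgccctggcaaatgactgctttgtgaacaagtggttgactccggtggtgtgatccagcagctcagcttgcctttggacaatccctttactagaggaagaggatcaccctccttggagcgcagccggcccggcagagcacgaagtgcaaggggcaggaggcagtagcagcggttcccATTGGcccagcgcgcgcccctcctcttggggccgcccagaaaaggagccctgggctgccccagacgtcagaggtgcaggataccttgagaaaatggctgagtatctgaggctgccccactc
The Acox2 window holds CCAAT 109 bases before the start and its reverse complement 97 before, and the Ehhadh window holds the reverse complement 71 before. CCAAT on either strand is in 37.5% of 33469 such windows. The Amacr window holds AGGTCA, the unit that many nuclear receptors bind, 201 bases before the start. AGGTCA on either strand is in 16.2% of windows and also in that of Hsd17b4. The longer AAAGGTCA, which contains it, was in the Amacr window alone among the 8 genes and in 1.43% of all windows. DR1, the direct repeat of AGGTCA with a single base between that PPARa binds (0.0538% of windows), and TGATGNAA, the core of amino acid response elements (3.98%), were in none of the 8 windows on either strand. These are matches of letters in a short window, and they say nothing about binding.

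Ehhadh, probe set 10752081, carries out the hydration and dehydrogenation of straight chains. At 4 weeks its log2 intensity was 10.52 at the lowest, 11.97 at the median and 12.50 at the highest on 5% protein, against 10.96, 11.26 and 11.72 on 20%. Of the 6 animals on 5%, only animal 23 (10.52) lay below the 20% median, and the groups overlapped. The difference of 0.52 ± 0.25 (SE, n = 6 a diet; 1.44-fold) did not pass (adjusted p = 0.128, limma), and leaving out 1 animal at a time gave 0.39 (without animal 26, adjusted p = 0.279) to 0.78 (without animal 23, adjusted p = 0.00404). At 1 week the values were 11.33, 11.95 and 12.27 on 5% and 11.42, 12.19 and 12.34 on 20%, and the difference was -0.07 ± 0.25 (adjusted p = 0.932).

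Over the 4 groups the mean of Ehhadh was highest on 20% at 1 week (11.98 ± 0.42, SD, n = 6), followed by 5% at 1 week (11.90 ± 0.33), 5% at 4 weeks (11.82 ± 0.70) and 20% at 4 weeks (11.30 ± 0.26). No neighbours in this order differed past the threshold. On 20% protein the gene changed by -0.68 ± 0.25 between 1 and 4 weeks (adjusted p = 0.156), and on 5% by -0.08 ± 0.25 (adjusted p = 0.906).

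Acox2, probe set 10779469, is the oxidase that in rats acts on the side chain of bile acid precursors. At 4 weeks its log2 intensity was 9.76 at the lowest, 10.10 at the median and 11.02 at the highest on 5% protein, against 11.40, 11.67 and 11.87 on 20%. Every animal on 5% lay below every animal on 20%. The difference was -1.35 ± 0.18 (2.55-fold lower, adjusted p = 6.85e-06, limma), larger in size than that of 98.0% of genes. At 1 week the values were 10.52, 10.86 and 11.39 on 5% and 11.07, 11.24 and 11.43 on 20%. The difference at 1 week, -0.35 ± 0.18, did not pass (adjusted p = 0.336).

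For Acox2 the diet difference at 4 weeks was larger than that at 1 week (difference of the differences -0.997 ± 0.26, adjusted p = 0.0272, limma). It was 1 of 7 enzyme genes past this test, with 5.75% of all genes called. Without animal 32 on 5% or animal 73 on 20%, both fed for 4 weeks, the adjusted p became 0.0526 and 0.0514, and 0 of the 7 passed. Without animal 22 or animal 26 on 5% at 4 weeks, Phyh passed too, which gave 2 of the 7. The group means of Acox2 ran from 20% at 4 weeks (highest) through 20% at 1 week and 5% at 1 week to 5% at 4 weeks (lowest). Of these neighbours, the last pair differed past the threshold: on 5% protein Acox2 fell by 0.62 ± 0.18 between 1 and 4 weeks (adjusted p = 0.0395). That call was lost when any 1 of 8 of the 12 animals was left out (animals 49, 50, 54 and 74 at 1 week and 23, 31, 32 and 59 at 4 weeks; adjusted p from 0.0513 to 0.117).

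Amacr, probe set 10813678, inverts the methyl branch of acyl-CoA esters so that the oxidases can act on them. At 4 weeks its log2 intensity was 8.91, 10.08 and 10.75 (lowest, median and highest) on 5% protein, against 10.60, 11.21 and 11.50 on 20%. The groups overlapped at the top of the 5% animals. The difference was -1.12 ± 0.23 (2.17-fold lower, adjusted p = 0.00065, limma). On 20% the 2 animals of run 1 measured 10.60 and 10.82, and the 4 of run 3 measured 11.18 to 11.50. At 1 week the values were 10.26, 10.36 and 10.78 on 5% and 10.49, 10.71 and 11.26 on 20%, a difference of -0.35 ± 0.23 (adjusted p = 0.465). The order of the 4 group means of Amacr was that of Acox2, and no neighbours differed past the threshold.

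Acox3, probe set 10777492, is the rat oxidase of pristanoyl-CoA. At 4 weeks it measured 11.27, 11.48 and 11.61 (lowest, median and highest log2 intensity) on 5% protein, against 11.61, 11.92 and 11.997 on 20%. The highest animal on 5% (11.61) was just under the lowest on 20% (11.61 after rounding), so the groups did not overlap. The difference was -0.38 ± 0.08 (1.30-fold lower, adjusted p = 0.000909, limma). On 20% the 2 animals of run 1 measured 11.607 and 11.619, and the 4 of run 3 measured 11.91 to 11.997. Run 1 held 5 of the 6 animals on 5%, and in that run the diets differed by -0.12 ± 0.09 (adjusted p = 0.425, limma). Acox2 and Acox3 were the 2 of 7 genes whose diets did not overlap at 4 weeks, both lower on 5%, as were 5.88% of all genes. At 1 week Acox3 differed by -0.17 ± 0.08 (adjusted p = 0.279).

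Hsd17b4, probe set 10801653, is the D-specific bifunctional enzyme that serves branched chains, bile acid precursors and very long chains. At 4 weeks it measured 10.46, 10.91 and 11.23 (lowest, median and highest log2 intensity) on 5%, against 11.06, 11.17 and 11.27 on 20%. The 20% animals lay close together, and 2 of the 6 animals on 5%, 22 and 26, were within their range. The difference of -0.28 ± 0.11 did not pass (adjusted p = 0.0527, limma), and leaving out 1 animal at a time gave -0.35 (without animal 26, adjusted p = 0.0128) to -0.20 (without animal 23, adjusted p = 0.157). It passed without animal 26 and without animal 22 (adjusted p = 0.0248), and in none of the other fits of this kind. At 1 week the difference was -0.02 ± 0.11 (adjusted p = 0.96).

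The alpha-oxidation pair was also lower on 5% than on 20% protein at 4 weeks. Phyh, probe set 10799558, the phytanoyl-CoA hydroxylase, measured 11.11, 11.58 and 12.16 (lowest, median and highest log2 intensity) on 5% protein, against 11.88, 12.29 and 12.60 on 20%. The groups overlapped, and the difference was -0.60 ± 0.15 (1.52-fold lower, adjusted p = 0.00304, limma). Hacl1, probe set 10790257, the lyase of the next step, measured 8.49, 9.23 and 10.24 on 5%, against 9.52, 10.01 and 10.87 on 20%. These too overlapped, with a difference of -0.91 ± 0.26 (1.88-fold lower, adjusted p = 0.00914). The diets were unequally spread over the runs of animal numbers, and with run as a covariate Hacl1 did not pass (-0.84, adjusted p = 0.0542).

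Phyh and Hacl1 differed from Acox2 and Amacr in the order of their group means, in which both 1 week groups stood above both 4 week groups. Hsd17b4 had the same order as Phyh and Hacl1, and Ehhadh too had its 1 week groups above its 4 week groups. On 5% protein Phyh fell by 0.70 ± 0.15 (adjusted p = 0.00451) and Hacl1 by 1.04 ± 0.26 (adjusted p = 0.0129) between 1 and 4 weeks. On 20% the changes were -0.12 ± 0.15 (adjusted p = 0.725) and -0.45 ± 0.26 (adjusted p = 0.402). With Acox2, they made 3 of 7 genes called between the times on 5% protein (8.29% of all genes were called), against 0 of 7 on 20% (2.52% of all genes). The lowest unadjusted p on 20% was 0.0111, for Ehhadh. The animals at 1 and 4 weeks were different rats, and each time comparison shares its groups with the diet comparisons.

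At 1 week 0 of the 7 genes were called, against 4.3% of all genes. All 7 differences were below 0, with a median of -0.17 against -0.01 over all genes, and 1 gene, Acox3, had an unadjusted p under 0.05 (0.0487). The 95% interval for Acox2 ran from -0.73 to 0.03 and that for Hsd17b4 from -0.24 to 0.20. In run 2 of animal numbers alone, 5 of the differences were above 0, from 0.02 (Acox2) to 0.19 (Ehhadh), and in run 4 all 7 were below 0, with -0.72 for Acox2 (adjusted p = 0.0654) and -0.66 for Hacl1 (adjusted p = 0.263). In either run 0 of the 7 were called by limma, against 7.57% of all genes in run 2 and 8.49% in run 4. The difference between the runs passed for 0 of the 7 (7.29% of all genes), and the lowest adjusted p from limma was 0.21, for Acox2, the 1 gene with an unadjusted p under 0.05.

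**Figure D2:**
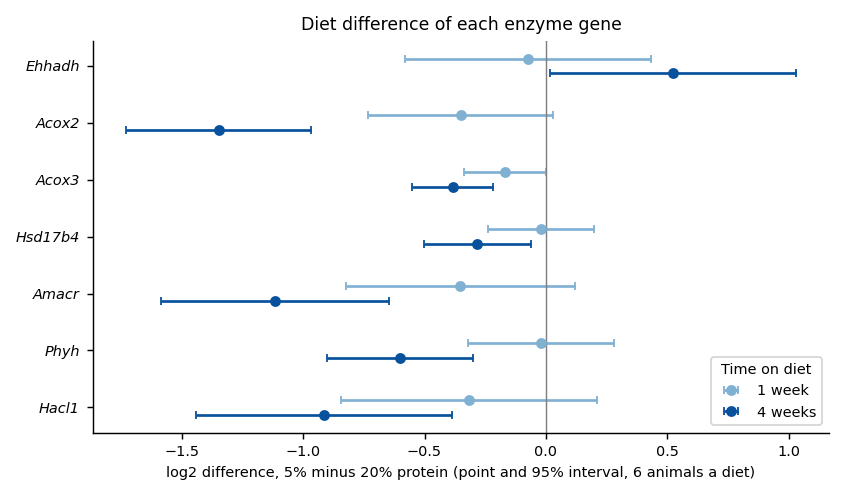
Log2 difference, 5% minus 20% protein (x axis), of each enzyme gene (y axis) at 1 week (light) and 4 weeks (dark), as the fitted value with its 95% interval from 6 animals a diet. Ehhadh at 4 weeks is the one point to the right of 0, and at 4 weeks Acox2 and Amacr lie furthest to the left at -1.35 and -1.12.

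The animals on 5% protein at 4 weeks were spread widely, with the same 2 animals at the top for every gene. In 6 of 7 genes, all but Acox3, the SD on 5% at 4 weeks was the largest of the 4 groups. It was 0.55 for Acox2, 0.70 for Amacr and 0.67 for Hacl1, against 0.19, 0.33 and 0.52 on 20%. The 7 genes were read from the same arrays and are not separate observations. How many of all genes had their largest SD in this group was not counted. Animals 22 and 26 had the highest and next highest values on 5% for all 7 genes, Ehhadh included. Animal 32 had the lowest Acox2 (9.76) and Amacr (8.91), and animal 23 the lowest Ehhadh, Hsd17b4 (10.46), Phyh (11.11) and Hacl1 (8.49).

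Within the runs of animal numbers the differences at 4 weeks stayed below 0 for all 6 genes other than Ehhadh, and varied in size. In run 1, with 5 animals on 5% and 2 on 20%, Acox2 differed by -1.21 ± 0.24 (adjusted p = 0.00161, limma) and was the 1 gene of 7 called (15.9% of all genes were). There Acox3 differed by -0.12 ± 0.09 (adjusted p = 0.425), Amacr by -0.70 ± 0.32 (adjusted p = 0.154), Phyh by -0.56 ± 0.22 (adjusted p = 0.0945) and Hacl1 by -0.35 ± 0.34 (adjusted p = 0.551). In run 3 the 5% group was animal 59 alone, so its values are given without a test within the run: it differed from the mean of the 4 animals on 20% by -1.84 for Acox2, -1.71 for Hacl1, -1.42 for Amacr, -0.69 for Phyh and -0.68 for Acox3. A test of the difference between the runs, which rests on the same animal and takes its spread from the other groups, passed for 0 of the 7 and 0.029% of all genes by limma, with 2 unadjusted p under 0.05, those of Acox3 and Hacl1. It does not show that the runs were alike.

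**Figure D3:**
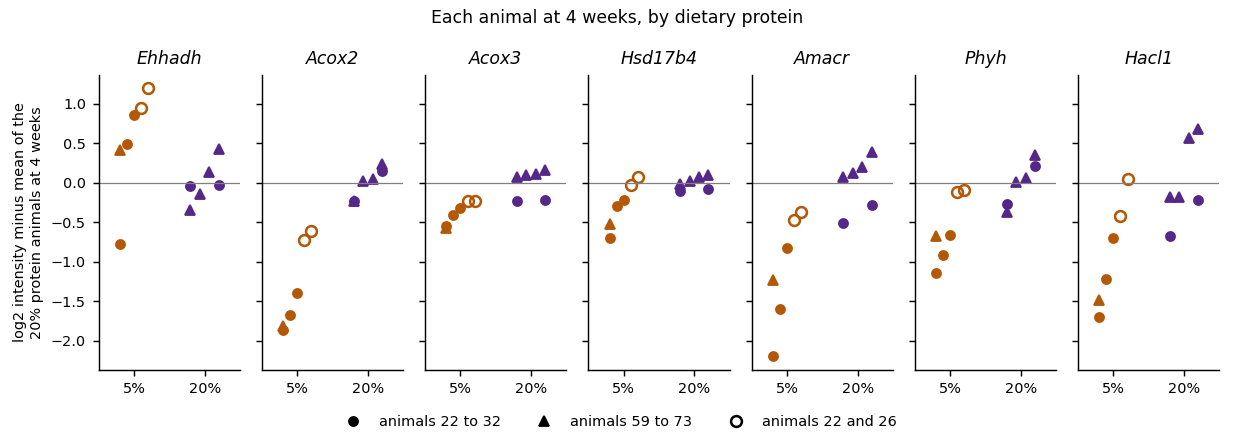
Log2 intensity of each animal at 4 weeks minus the mean of the 20% animals of that gene (y axis), for 5% and 20% protein (x axis) and each enzyme gene. Circles are animals 22 to 32, triangles animals 59 to 73, and open circles animals 22 and 26, which are the top of the 5% group in each panel.

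Whether Ehhadh moved unlike the others was asked from its log2 ratio to each other gene within an array. Such a ratio shows unequal change and not unequal levels. At 4 weeks the ratio was higher on 5% than on 20% protein for all 6 partners. The ratio to Acox2 was 0.57, 1.51 and 2.40 (lowest, median and highest) on 5% and -0.72, -0.24 and -0.13 on 20%, without overlap. Its mean differed by 1.87 (SD 0.61 on 5% and 0.23 on 20%, n = 6 each, exact permutation test over animals, two-sided, p = 0.00216, the smallest that 6 against 6 can give, and adjusted p = 0.00649 over 12 tests). The differences for Amacr (1.64), Hacl1 (1.44) and Phyh (1.12) had the same p and adjusted p, and these ratios did not overlap either.

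The ratio of Ehhadh to Hsd17b4, the bifunctional enzymes of the L and D routes, was 0.06, 1.09 and 1.27 on 5% and -0.19, 0.18 and 0.45 on 20% at 4 weeks. It differed by 0.80 (exact permutation test, p = 0.0108, adjusted p = 0.026), and 1 animal on 5% lay within the 20% range. The ratio to Acox3 differed by 0.91 (exact permutation test, p = 0.0195, adjusted p = 0.039). Its groups overlapped, and animal 23 on 5% (-0.996) lay below the lowest animal on 20% (-0.953). At 1 week none of the 6 ratios passed (differences of -0.05 to 0.28, lowest exact permutation p = 0.184). The 6 ratios share Ehhadh and are not separate evidence. At 4 weeks the difference of Ehhadh itself, 0.52 ± 0.25, is part of each. It is larger in size than the -0.28 ± 0.11 of Hsd17b4. At 4 weeks all 6 differences were above 0 in both runs of animal numbers. They were 0.70 (Acox3) to 1.79 (Acox2) in run 1, with 5 animals on 5% and 2 on 20%. In run 3, where animal 59 was alone on 5%, they were 0.97 (Hsd17b4) to 2.24 (Acox2), all with the 1 Ehhadh value of that animal. These values by run were added after seeing the data and were not tested.

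**Figure D4:**
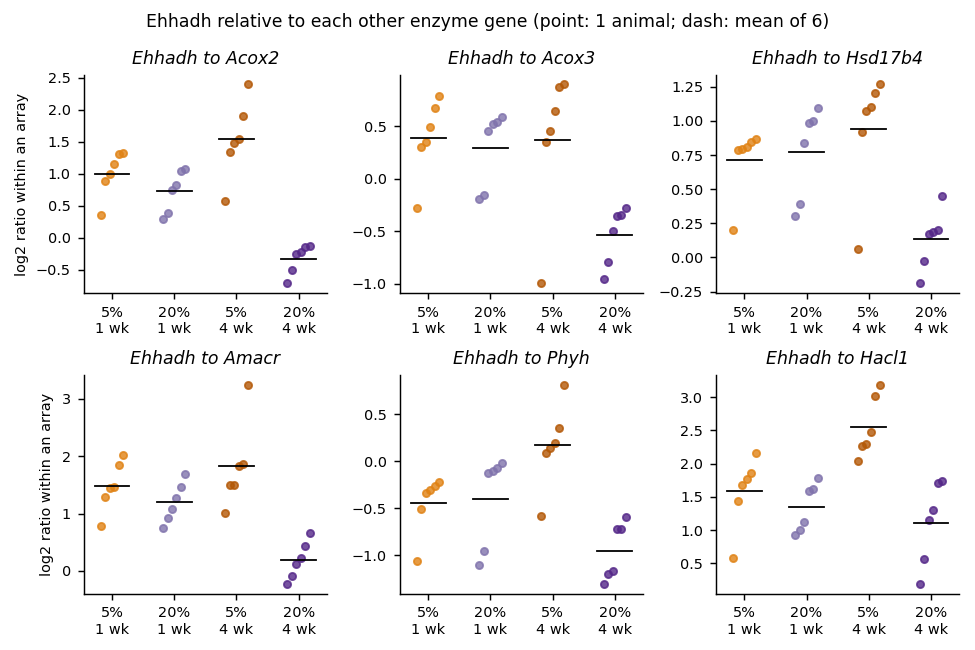
Log2 ratio of Ehhadh to each other enzyme gene within an array (y axis, scale differs between panels) by group (x axis: percent protein and weeks), 1 point per animal and a dash at the mean of 6. At 4 weeks the ratios to Acox2, Amacr, Phyh and Hacl1 do not overlap between 5% and 20% protein.

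Patterns were compared by the root mean square difference of log2 values, each gene centred on its own mean over the 24 arrays. Acox2 and Amacr differed by 0.34 by this measure, and Acox2 and Ehhadh by 0.78, the largest among the 21 pairs of the 7 genes. Outside the 7, the genes nearest to Acox2 were Hagh (0.22), Ptprd (0.23) and the lipoprotein receptor gene Lrp1 (0.24), with log2 diet differences at 4 weeks of -0.96, -1.47 and -1.04. Nearest to Amacr were Kmo of the kynurenine pathway (0.26), Lrp1 (0.27) and the transporter gene Slco2b1 (0.28). Nearest to Ehhadh were Vwa8 (0.27), Decr1 (0.29), a mitochondrial reductase for unsaturated chains, and Rxrg (0.32), and limma called none of these 3 at 4 weeks.

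The steps before and after the peroxisomal cycle of bile acid synthesis were counted from a list of names. At 4 weeks 5 of 11 measured genes were lower on 5% and 1 higher, with a median log2 difference of -0.29. Slc27a5, which attaches coenzyme A to bile acids, was lower by 1.34 ± 0.22 (adjusted p = 7.82e-05, limma). Cyp39a1, a hydroxylase of oxysterols, was lower by 1.10 ± 0.18 (adjusted p = 4.72e-05, limma). Baat, which joins bile acids to taurine or glycine, was lower by 0.64 ± 0.10 (adjusted p = 2.32e-05, limma). Cyp7a1, the rate-limiting enzyme, differed by 1.25 ± 0.98 (adjusted p = 0.399), and Cyp27a1, which starts side chain oxidation, by 0.00 ± 0.16 (adjusted p = 0.994). At 1 week 1 of the 11 was lower, Cyp8b1, the sterol hydroxylase that sets the share of cholic acid (-1.56 ± 0.38, adjusted p = 0.0196), against 2.44% of all genes called lower at that week. At 4 weeks Cyp8b1 differed by -0.53 ± 0.38 and did not pass (adjusted p = 0.35, limma).

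Genes for the exit of products from the peroxisome were mostly higher. Of 6 measured, 5 were higher on 5% at 4 weeks and 0 lower, with a median of 0.91. The nucleotide hydrolase gene Nudt7 was higher by 0.90 ± 0.15 (adjusted p = 1e-04, limma). The carnitine acyltransferase genes Crat and Crot were higher by 1.78 ± 0.34 and 1.14 ± 0.23 (adjusted p of 0.000336 and 0.000592, limma). For entry and activation of acyl chains 2 of 7 were higher and 1 lower, with a median of 0.12. The transporter gene Abcd2 was higher on 5% by 2.15 ± 0.40 and the ligase gene Acsl4 by 0.39 ± 0.12. The ligase gene Acsl1 was lower by 0.63 ± 0.16. Between 1 and 4 weeks Abcd2 changed by -1.25 ± 0.40 on 5% (adjusted p = 0.0499, limma). On 20% it changed by -3.32 ± 0.40 (adjusted p = 1.04e-05, limma). Of 4 auxiliary enzymes for unsaturated chains 1 was lower, Eci3 (-0.83 ± 0.15, adjusted p = 0.000129), with a median of -0.05. Eci3 was also lower at 1 week (-0.67 ± 0.15, adjusted p = 0.00823). Of the list for the straight-chain route, which leaves out Hsd17b4, Ehhadh is the 1 gene reported here.

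Partners of alpha-oxidation and plasmalogen synthesis were lower in 3 of 6 and higher in 1 at 4 weeks, with a median of -0.24. Phyhd1, a relative of Phyh, was lower by 0.62 ± 0.12 (adjusted p = 0.000306, limma). Far1, which makes fatty alcohols, was lower by 0.49 ± 0.12 (adjusted p = 0.00238, limma). Gnpat, which starts plasmalogen synthesis, was higher by 0.32 ± 0.10 (adjusted p = 0.0151, limma). Of 6 measured genes for import of matrix enzymes 2 were lower and 1 higher, with a median of -0.04. Pex5, the receptor for the C-terminal import signal, was lower by 0.44 ± 0.14. The docking protein gene Pex13 was lower by 0.30 ± 0.09, and its partner Pex14 was higher by 0.34 ± 0.08. The list of nuclear receptors with 1 coactivator held 7 genes in all, with a median of -0.19. The 1 called lower was Rxra, the partner of PPARa (-0.48 ± 0.11, adjusted p = 0.00139, limma). The 1 called higher was the coactivator gene Ppargc1a (1.56 ± 0.28, adjusted p = 0.000163, limma). Ppara itself differed by 0.05 ± 0.21 (adjusted p = 0.899).

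Mitochondrial fatty acid oxidation, which takes over shortened chains, had 2 of 15 genes higher and 4 lower on 5% at 4 weeks, with a median of 0.06. Hadhb, the beta subunit of the trifunctional protein, was higher by 1.20 ± 0.10 (adjusted p = 7.18e-09, limma). The alpha subunit gene Hadha differed by 0.13 ± 0.12 and did not pass (adjusted p = 0.465, limma). Cpt2, the inner carnitine acyltransferase, was higher by 0.64 ± 0.15 (adjusted p = 0.00257, limma). Echs1, a hydratase, was lower by 0.66 ± 0.16 (adjusted p = 0.00361, limma). At 1 week Hadhb was higher (0.55 ± 0.10, adjusted p = 0.00239), and the other 14 did not pass. No list of these steps was tested against other genes, and each count stands beside the 13.4% of all genes called higher and 12.4% called lower at 4 weeks.

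**Figure D5:**
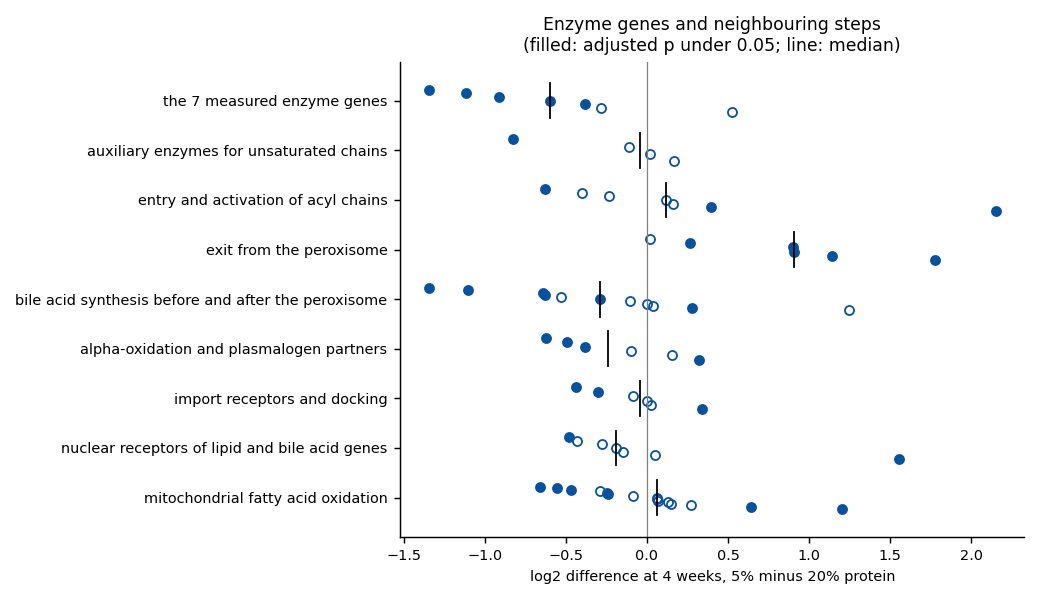
Log2 difference at 4 weeks, 5% minus 20% protein (x axis), of the 7 measured enzyme genes and of the measured genes in lists of neighbouring steps (y axis), 1 point per gene, filled where the adjusted p is under 0.05, with a line at each median. The 7 enzyme genes have a median of -0.60 and the exit genes one of 0.91.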

How the data were processed

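RNA of 24 rat livers was measured on 1-colour Affymetrix whole-transcript arrays. The authors deposited intensity values per probe set, made with RMA and given unlogged, per the labels; its version, the genome build and any filter are not given in the sources used here. With no detection call in the files, a low value cannot be told from background, and the number of arrays limits the precision. Here log2 of the intensity was taken. Of 29214 probe sets 18644 were annotated with 1 symbol, 962 with several and 9608 with none, and only the first were used, with the probe set of highest mean kept per gene. The means of the 4 groups were fitted over 17245 genes in 1 model with limma 3.58.1 (lmFit, eBayes) in R 4.3.3, with 20 residual degrees of freedom and 3.95 from the prior, and Benjamini-Hochberg adjusted p under 0.05 was called. "Rose", "fell", "higher" and "lower" in lists mean called. The fit was tested on simulated data in which a gene had the same SD in every group and there were no runs. That test does not cover the unequal SDs and the runs of animal numbers of the real data. Exact permutation tests of log2 ratios used all 924 splits of 6 against 6.

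The genes, the lists and the tests were chosen with earlier results of these data known. Named genes are the 7, the 3 called with the smallest adjusted p at 4 weeks in each list, and the 3 of nearest pattern for Acox2, Amacr and Ehhadh. Ppara, Cyp7a1, Cyp27a1, Hadha, the adipocyte and lymphocyte markers and genes called at 1 week were named after their values were seen. Alternatives covered normalization, an offset of 16, probe set summary, a filter on the lowest 33.3% of genes, variance estimation, samples in the fit, run, well column, well row and each animal left out.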

Additional observations from a re-analysis of the deposited data

Results flagged for a closer look

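Of 28 sets of 6 animals (7 genes in 4 groups), 3 held an animal far from the others by Dixon's test, which chance does in about 5% of sets. All 3 were high animals on 20% protein at 1 week. Animal 78 had a log2 intensity of 11.88 for Acox3, with the nearest animal at 11.68, and of 11.21 for Hacl1, with the nearest at 10.61. Animal 51 had 12.56 for Phyh, with the nearest at 12.38. Without animal 78 or 51, 0 of the 7 genes were called between the diets at 1 week, as with all animals. The diet difference of Acox2 differed between the weeks, by -0.997 on the log2 scale (adjusted p = 0.0272, limma), with all 6 animals on 5% below all 6 on 20% at 4 weeks and overlap at 1 week.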

How the results depend on the processing

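No paired analysis was possible because each animal number occurs in a single group. The count of genes called at 4 weeks was 5, and 1 in run 1 of animal numbers alone, with 5 animals on 5% and 2 on 20%. Leaving out 1 animal gave 5 to 6 at 4 weeks, 0 at 1 week, 0 to 2 for diet by time (1 with all animals; 2 without animal 22 or 26 and 0 without animal 32 or 73), 2 to 4 for time on 5% (3 with all), 0 for time on 20%, and 5 to 6 for the ratios of Ehhadh (6 with all). The other alternatives kept these counts within 1.5 times.

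Only differences that had not passed changed sign. In run 2 alone at 1 week these were Ehhadh (0.19), Acox2 (0.0164), Hsd17b4 (0.0804), Phyh (0.0197) and Hacl1 (0.0292), and under quantile normalization Hsd17b4 (0.00659); the cause was not tested. Leaving out 1 animal gave -0.185 to 0.0402 for Ehhadh, -0.0646 to 0.0241 for Hsd17b4 and -0.0504 to 0.0218 for Phyh at 1 week, -0.22 to 0.18 for Ehhadh over time on 5%, and -0.0689 to 0.00542 for Hsd17b4 over time on 20%. Hsd17b4 at 4 weeks passed with the lowest 33.3% of genes left out (adjusted p = 0.0416), an offset of 16 (0.0497) and well column as a covariate (0.0387). Acox2 over time on 5% did not pass with only these 2 groups fitted (adjusted p = 0.114).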

Other observations

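Other cell types in the liver were followed by markers listed by name. At 4 weeks 12.4% of all genes were called lower on 5% protein and 13.4% higher. Of 7 Kupffer cell markers 6 were lower at that week, with a median log2 difference of -0.51. Their summed intensity was 2513 to 3269 on 5% and 3608 to 6246 on 20%. Lower too were 2 of 7 stellate (median -0.39), 1 of 4 endothelial (-0.24), 2 of 5 erythroid (-0.83) and 1 of 5 adipocyte markers (0.03). The adipocyte marker called, Cidec, lay above 91.7% of genes, and Adipoq, Plin1, Lep and Retn above 26.2 to 38.5%. Of 4 cholangiocyte markers 2 were higher (0.32). Limma called 0 of 5 lymphocyte markers (-0.19), with 1 unadjusted p under 0.05. These lay above only 17.2% (Cd3d) to 49% (Cd79b) of genes, which limits what their lack of calls shows. At 1 week, when 2.44% of all genes were called lower and 4.3% in either direction, 3 of 5 erythroid markers were lower (median -1.30), and limma called 0 markers of the other 7 types, hepatocytes included, with 1 unadjusted p under 0.05, for a Kupffer cell marker. The part of these shifts in the results for the enzyme genes was not tested.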
